A study of Homo sapiens with 9 samples.

Results

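The genes described here are 54 components of focal adhesions and the actin cytoskeleton, out of 48799 probes on the array. They were listed by name, with earlier results of these data known. A probe was taken for a gene when its annotated symbol, current or older through the Entrez identifier, was in the list. This gave 98 probes for 51 genes, while TPM3, FLNA and FLNC had none under these symbols and were not analysed here. Of the 51, 49 were detected on at least 3 arrays and tested. PARVB was detected on 1 KD1 array and CNN1 on none, so neither was tested. NEDD9 was detected on 3 KD1, 2 KD2 and 1 Luc arrays, and the other 48 on all 9 arrays.

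The study asked how transcript levels change when the histone demethylase KDM5A, also called RBP2 or JARID1A, is depleted in MDA-MB-231, an established line of human breast carcinoma cells that grow in a mesenchymal form. RNA was taken 72 h after transfection and hybridised to Illumina bead arrays, 3 for each group. KD1 cells received the first siRNA against KDM5A, KD2 cells the second siRNA against the same gene, and Luc cells an siRNA against luciferase. All groups were thus transfected cells of 1 line, and the labels do not say whether arrays of a group came from separate cultures, so the spread between arrays may be technical.

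A focal adhesion ties the actin cytoskeleton to the matrix outside the cell. Integrins span the membrane, talin and kindlin bind their tails, and adaptors such as vinculin, paxillin, ILK and zyxin join them to actin filaments and carry signals through the kinase FAK. On the actin side, crosslinkers bundle filaments, tropomyosins and caldesmon coat them, non-muscle myosin pulls on them, cofilin severs them, and the GTPases RHOA, RAC1 and CDC42 decide where filaments form. In carcinoma cells with mesenchymal features this machinery carries spreading and migration.

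The share of probes detected was 29.8% to 31.0% on KD1 arrays, 31.5% to 32.3% on KD2 arrays and 32.1% to 35.9% on Luc arrays. It was lowest with KD1 and highest on Luc replicate 3. The lowest correlation of each array with another of its group was 0.986 to 0.989, and correlations between groups were 0.963 to 0.975. The KDM5A level was not analysed here, since the annotation used gave no probe that symbol. KD1 arrays lay at other positions of the slide than the KD2 and Luc arrays, so position and siRNA cannot be told apart for KD1. Of 8 genes listed as markers of MDA-MB-231, 7 were detected on all arrays and SPARC on none. Of these 7, AXL, CAV1, LOX and PLAU fell with KD1, 4 of 7, and MMP14 rose with KD2. Their summed linear level was 48070 to 48978 on KD1 arrays, 62539 to 64345 on KD2 arrays and 62502 to 64047 on Luc arrays. ESR1, PGR and FOXA1 of luminal cells, COL1A2, COL3A1, LUM, THY1 and FAP of fibroblasts, MYH11, ACTG2, LMOD1, KRT5 and KRT14 of smooth muscle and myoepithelium, and CD3E and ITGAM of leukocytes were not detected on any array. EPCAM, KRT19 and ERBB2 of luminal cells, PDGFRA of fibroblasts, SMTN and SYNM of smooth muscle and myoepithelium, and CD68 of leukocytes were detected on all 9 arrays. GATA3 and CDH1 of luminal cells, PDGFRB, COL1A1 and DCN of fibroblasts, and CD14 of leukocytes were detected on some arrays. So were others of the leukocyte list and of the smooth muscle and myoepithelial list. EPCAM fell with both siRNAs (log2 difference -0.50 each), KRT19 fell with KD1 (-0.61) and rose with KD2 (0.60), and PDGFRB rose with KD2 (1.32). The summed level of 8 listed smooth muscle and myoepithelial genes with a probe was 480 to 556 on KD1 arrays, 462 to 613 on KD2 arrays and 379 to 398 on Luc arrays. Only SMTN and SYNM of these were tested. SMTN was higher with both siRNAs (log2 difference 1.07, adjusted p = 0.0108 with KD1 and 0.78, adjusted p = 0.0339 with KD2), while SYNM was not called against Luc, at -0.67 with KD1 and 0.43 with KD2. The part of these genes in the results was not tested.

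Values below are log2 intensities after background correction and quantile normalization, and a difference is the log2 mean of 1 group minus that of another, with 3 arrays each. A gene was called when limma's moderated test over all 13076 tested features gave a Benjamini-Hochberg adjusted p under 0.05. With KD1 against Luc, 9 of the 49 measured genes were called, 3 higher and 6 lower, a share of 18.4% beside 16.5% of all tested features (7.23% higher and 9.27% lower). With KD2 against Luc, 17 were called, 9 higher and 8 lower, a share of 34.7% beside 22.4% of all tested features (10.9% higher and 11.5% lower). Among features detected on all 9 arrays, as 48 of the 49 genes were, the share called was 19.4% with KD1 and 27.2% with KD2. The share with KD1 thus lay near the background, and that with KD2 lay above it, with no test of that difference. In RNA from whole cultures, fewer cells making a transcript and less of it per cell cannot be told apart.

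The split of the calls into higher and lower moved with the scaling of the arrays. With arrays scaled to the median of all probes, the calls were 2 higher and 12 lower with KD1 and 6 higher and 10 lower with KD2. With arrays scaled to the median of the tested features, a setting chosen after seeing the data, they were 7 higher and 4 lower with KD1 and 12 higher and 7 lower with KD2. The authors' deposited normalized values gave 7 higher and 9 lower with KD1. No called gene changed sign under any of these. The count with KD1 was 5 without KD1 replicate 1 and 5 without Luc replicate 1, and that with KD2 was 11 without KD2 replicate 2 and 10 without Luc replicate 2.

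The 6 genes called with the same sign in both comparisons were CDC42SE2 and PXN, which rose, and FSCN1, TPM1, CALD1 and RDX, which fell. They make up 12.2% of the measured genes, beside 5.41% of all tested features (2.77% higher and 2.65% lower), and the comparisons share the Luc arrays. Features detected on all 9 arrays were called more often with each siRNA than all tested features. Their share called with both siRNAs was not counted. No gene was called with opposite signs, beside 1.25% of all tested features. FERMT1, PDLIM1 and ACTN4 were called with KD1 alone, and 11 genes with KD2 alone. The count of 6 was 3 without KD1 replicate 1, without KD2 replicate 3, without Luc replicate 1 or without Luc replicate 2. It split into 2 higher and 5 lower with median scaling, 5 higher and 2 lower with scaling over the tested features, and 5 higher and 4 lower with the deposited values.

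**Figure D1:**
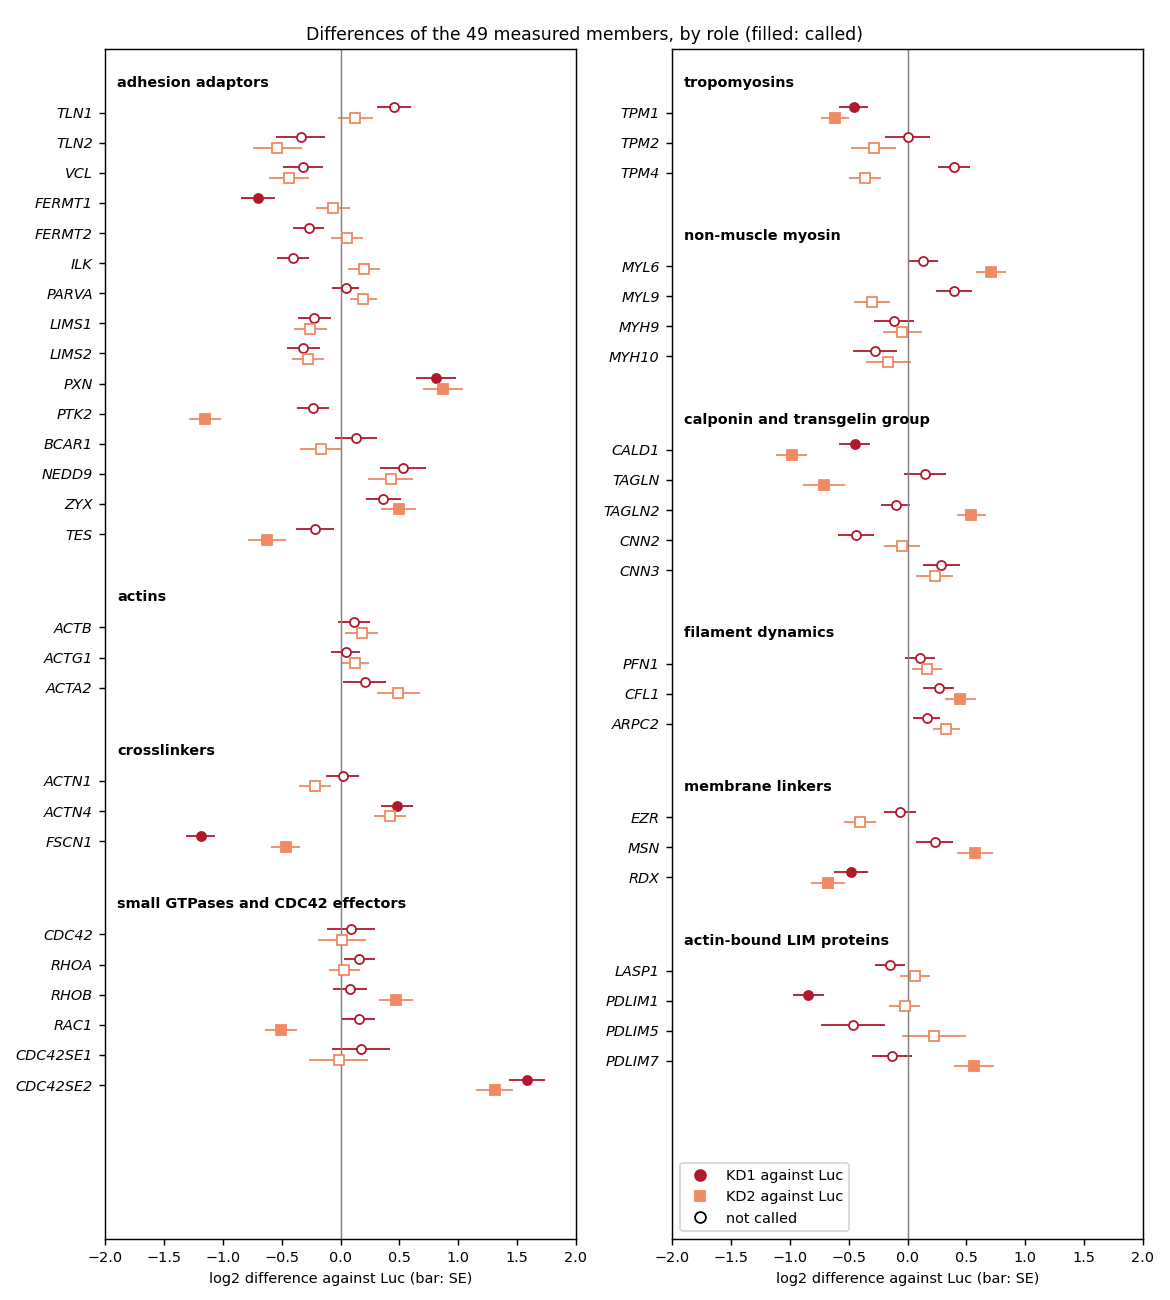
Log2 difference of each of the 49 measured genes against Luc (x axis), by role, with KD1 as circles and KD2 as squares. Filled symbols are calls, open symbols are not called, and bars are 1 SE. CDC42SE2 and PXN lie to the right of 0 with both siRNAs, and FSCN1, TPM1, CALD1 and RDX to the left.

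Of 16 adhesion adaptors, 15 were measured. PXN, which encodes paxillin, the scaffold that recruits kinases to adhesions, had log2 intensities of 6.77, 6.30 and 6.75 on the KD1 arrays and 6.81, 6.63 and 6.56 on the KD2 arrays, against 5.81, 5.56 and 6.01 on the Luc arrays. Every knockdown array lay above every Luc array. The log2 difference was 0.81 (SE 0.17, adjusted p = 0.00994) with KD1 and 0.87 (SE 0.17, adjusted p = 0.00523) with KD2, that is 1.76-fold higher and 1.83-fold higher. The log2 difference between the siRNAs was -0.06 (95% interval -0.44 to 0.32). With the deposited values PXN was still called, at smaller log2 differences of 0.22 with KD1 (adjusted p = 0.0289) and 0.23 with KD2 (adjusted p = 0.0155), and without background correction they were 0.35 and 0.37. PTK2, which encodes the focal adhesion kinase FAK, had log2 intensities of 12.30, 12.18 and 11.87 on the KD1 arrays and 11.24, 11.13 and 11.21 on the KD2 arrays, against 12.35, 12.29 and 12.41 on the Luc arrays. The KD2 arrays lay below all others, while KD1 and Luc arrays overlapped. With KD2 the log2 difference was -1.16 (SE 0.14, adjusted p = 0.000374), 2.23-fold lower, and with KD1 it was -0.24 (95% interval -0.54 to 0.07), not called. PTK2 was higher in KD1 than in KD2 cells by a log2 difference of 0.92 (SE 0.14, adjusted p = 0.000855). Another PTK2 probe gave log2 differences of -0.72 with KD2 and 0.47 for KD1 against KD2, neither called. Detected on 7 of the 9 arrays, it had low mean log2 intensities of 5.68 with KD1, 5.21 with KD2 and 5.93 with Luc.

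FERMT1, which encodes kindlin-1, an integrin activator of epithelial cells, had log2 intensities of 6.21, 6.32 and 6.05 on the KD1 arrays and 7.03, 6.72 and 6.74 on the KD2 arrays, against 7.04, 6.75 and 6.91 on the Luc arrays. The KD1 arrays lay below the others, and the KD2 and Luc arrays overlapped. FERMT1 thus fell with KD1, with log2 differences of -0.70 (SE 0.14, adjusted p = 0.00838) against Luc and -0.64 (SE 0.14, adjusted p = 0.00813) against KD2. With the deposited values FERMT1 was still called, at -0.22 against Luc (adjusted p = 0.0222) and -0.20 against KD2 (adjusted p = 0.0288), and without background correction the log2 differences were -0.34 and -0.31. ILK encodes the pseudokinase at the centre of the complex with PINCH and parvin. ILK had log2 intensities of 12.31, 12.38 and 12.32 on the KD1 arrays and 12.78, 12.98 and 13.06 on the KD2 arrays, against 12.89, 12.80 and 12.55 on the Luc arrays. The KD1 arrays lay below all others. It was not called against Luc with either siRNA, with log2 differences of -0.41 (95% interval -0.71 to -0.11) for KD1 and 0.20 (95% interval -0.11 to 0.50) for KD2, but it was lower in KD1 than in KD2 cells by a log2 difference of -0.60 (SE 0.14, adjusted p = 0.00839). Another ILK probe gave a called log2 difference of -1.02 for KD1 against KD2.

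ZYX and TES encode LIM proteins, zyxin and testin, that bind each other at adhesions and along stress fibres. ZYX had log2 intensities of 11.28, 11.13 and 11.33 on the KD1 arrays and 11.09, 11.50 and 11.53 on the KD2 arrays, against 10.79, 10.88 and 10.98 on the Luc arrays. With KD2 the log2 difference was 0.49 (SE 0.15, adjusted p = 0.0364) and with KD1 0.36 (SE 0.15, adjusted p = 0.125), so it was called with KD2 alone, although all knockdown arrays lay above all Luc arrays. Another ZYX probe gave a log2 difference of 0.73 with KD2, not called (adjusted p = 0.0522). TES had log2 intensities of 7.39, 7.17 and 7.42 on the KD1 arrays and 6.68, 6.95 and 7.12 on the KD2 arrays, against 7.52, 7.35 and 7.77 on the Luc arrays. Its log2 difference was -0.63 (SE 0.16, adjusted p = 0.0187) with KD2 and -0.22 (SE 0.16, adjusted p = 0.403) with KD1, whose arrays overlapped those of Luc. Another TES probe gave log2 differences of -0.84 with KD1, called, and -0.43 with KD2, not called. The ZYX call was lost without KD2 replicate 2 or 3 or any 1 Luc array (adjusted p = 0.0546 to 0.118) and with median scaling, without the detection filter or with only the groups compared in the fit (adjusted p = 0.0565 to 0.073), and the TES call without KD2 replicate 1 or Luc replicate 3 (adjusted p = 0.0647 and 0.0669). The TES log2 difference with KD2 was -0.27 with the deposited values and -0.38 without background correction, called with both.

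The other 9 measured adaptors were called in none of the comparisons. They are the talins TLN1 and TLN2, vinculin (VCL), kindlin-2 (FERMT2), the ILK partners PARVA, LIMS1 and LIMS2, and the docking proteins BCAR1 and NEDD9. Their log2 differences ran from -0.34 (TLN2) to 0.53 (NEDD9) with KD1 and from -0.54 (TLN2) to 0.43 (NEDD9) with KD2. Another VCL probe was called lower with KD2, with a log2 difference of -0.58.

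**Figure D2:**
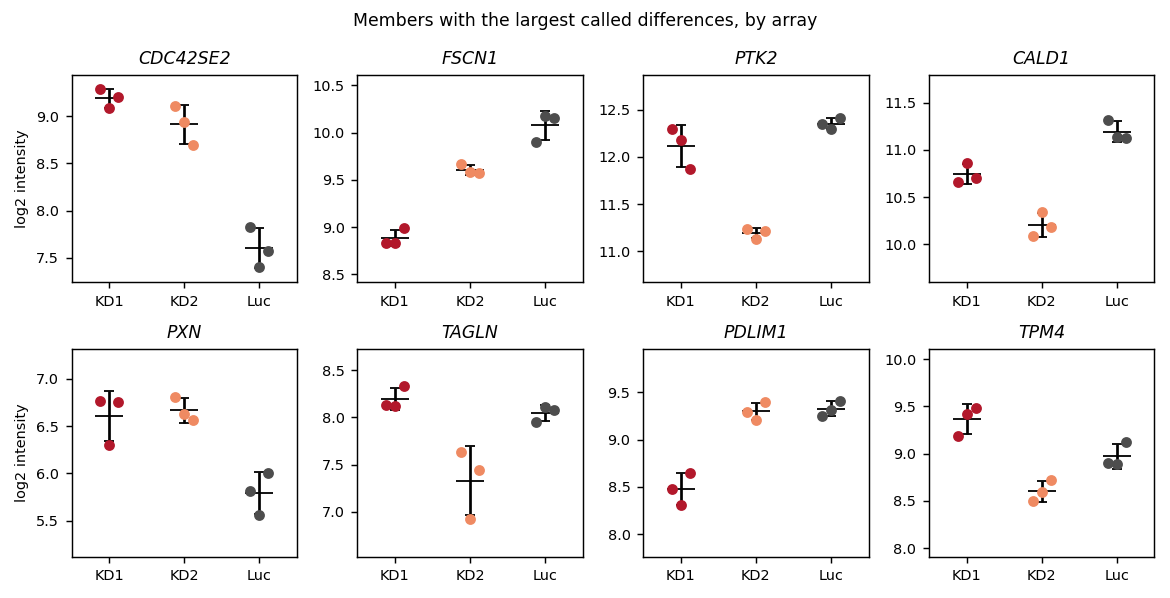
Log2 intensity (y axis, the same span in each panel) of the 8 genes with the largest called differences, on the 3 arrays of KD1, KD2 and Luc cells (x axis). Points are arrays, dashes are means and bars are 1 SD. For CDC42SE2 and PXN both knockdowns lie above Luc, for FSCN1 and CALD1 both lie below it, and PTK2 and TAGLN are low in KD2 cells.

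None of the 3 actins was called with the probe tested. ACTB, which encodes beta-actin and is often used as a loading standard, had log2 intensities of 14.91, 14.80 and 14.66 on the KD1 arrays and 14.80, 14.98 and 14.78 on the KD2 arrays, against 14.63, 14.54 and 14.87 on the Luc arrays. ACTG1, the cytoplasmic gamma-actin, had log2 intensities of 15.21, 15.22 and 15.18 on the KD1 arrays and 15.21, 15.37 and 15.27 on the KD2 arrays, against 15.01, 15.28 and 15.19 on the Luc arrays. Arrays of the groups overlapped for both genes. The log2 difference of ACTB was 0.11 (95% interval -0.19 to 0.42) with KD1, 0.18 (95% interval -0.13 to 0.48) with KD2 and -0.07 (95% interval -0.37 to 0.24) for KD1 against KD2. That of ACTG1 was 0.04 (95% interval -0.23 to 0.31) with KD1, 0.12 (95% interval -0.15 to 0.39) with KD2 and -0.08 (95% interval -0.35 to 0.19) for KD1 against KD2. Another ACTG1 probe was called higher with KD2, with a log2 difference of 0.48 and an adjusted p of 0.0317. ACTA2, smooth muscle alpha-actin, had log2 differences of 0.20 (95% interval -0.20 to 0.61) with KD1 and 0.49 (95% interval 0.09 to 0.89) with KD2.

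FSCN1 encodes fascin, which bundles filaments in filopodia and invasive protrusions, and it had the largest fall of the measured genes with KD1. FSCN1 had log2 intensities of 8.83, 8.84 and 8.99 on the KD1 arrays and 9.67, 9.58 and 9.57 on the KD2 arrays, against 9.90, 10.18 and 10.15 on the Luc arrays. The groups did not overlap, with KD1 lowest, KD2 between and Luc highest. With KD1 the log2 difference was -1.19 (SE 0.13, adjusted p = 0.000317), 2.28-fold lower, and with KD2 it was -0.47 (SE 0.13, adjusted p = 0.0234), 1.38-fold lower. KD1 lay below KD2 by a log2 difference of -0.72 (SE 0.13, adjusted p = 0.00217). ACTN4, a non-muscle alpha-actinin, had log2 intensities of 11.33, 11.21 and 11.34 on the KD1 arrays and 11.26, 11.16 and 11.28 on the KD2 arrays, against 10.65, 10.75 and 11.05 on the Luc arrays. All knockdown arrays lay above all Luc arrays. The log2 difference of ACTN4 was 0.48 (SE 0.14, adjusted p = 0.0368) with KD1 and 0.42 (SE 0.14, adjusted p = 0.0501) with KD2, on either side of the threshold, and the difference between the siRNAs was 0.06 (95% interval -0.24 to 0.36). ACTN1 was not called, with log2 differences of 0.02 (95% interval -0.29 to 0.33) with KD1 and -0.22 (95% interval -0.53 to 0.09) with KD2. The FSCN1 call with KD2 was lost without KD2 replicate 2 or 3 or Luc replicate 2 or 3 (adjusted p = 0.067 to 0.0867). The ACTN4 call was lost without any 1 array but KD2 replicate 3 and Luc replicate 3 (adjusted p = 0.0512 to 0.118) and with median scaling, without the detection filter or with only the groups compared in the fit (adjusted p = 0.0694 to 0.252), where the lowest log2 difference was 0.26, with median scaling.

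Among the tropomyosins, which lie along the filament and gate myosin and cofilin, TPM1 fell with both siRNAs. TPM1 had log2 intensities of 9.32, 9.43 and 9.30 on the KD1 arrays and 9.11, 9.28 and 9.18 on the KD2 arrays, against 9.90, 9.85 and 9.68 on the Luc arrays. All knockdown arrays lay below all Luc arrays. The fall was -0.46 (SE 0.12, adjusted p = 0.0284) with KD1 and -0.62 (SE 0.12, adjusted p = 0.00527) with KD2 as log2 differences. Another TPM1 probe gave log2 differences of -0.67 with KD2, called, and -0.47 with KD1, not called (adjusted p = 0.0553). TPM4 had log2 intensities of 9.19, 9.42 and 9.49 on the KD1 arrays and 8.50, 8.60 and 8.72 on the KD2 arrays, against 8.90, 8.89 and 9.12 on the Luc arrays. Its KD1 arrays lay above and its KD2 arrays below the Luc arrays, and neither log2 difference was called, at 0.40 (95% interval 0.09 to 0.70) with KD1 and -0.37 (95% interval -0.67 to -0.06) with KD2. The log2 difference of KD1 against KD2 was 0.76 (SE 0.14, adjusted p = 0.00246), and another TPM4 probe gave 0.72, also called. TPM2 was not called, with log2 differences of 0.00 (95% interval -0.43 to 0.43) and -0.29 (95% interval -0.72 to 0.14) for KD1 and KD2. The TPM1 call with KD1 was lost without KD1 replicate 1 or 3 or Luc replicate 1 or 2 (adjusted p = 0.0778 to 0.0887) and without the detection filter or with only the groups compared in the fit (adjusted p = 0.0524 and 0.0544). With median scaling the TPM1 log2 difference with KD1 was -0.70.

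The light chains MYL6 and MYL9 of non-muscle myosin differed between the siRNAs, in opposite directions. MYL6, the essential light chain, had log2 intensities of 13.69, 13.69 and 13.61 on the KD1 arrays and 14.16, 14.17 and 14.39 on the KD2 arrays, against 13.61, 13.61 and 13.37 on the Luc arrays. The KD2 arrays lay above all others. MYL6 rose with KD2, by a log2 difference of 0.71 (SE 0.13, adjusted p = 0.00343), 1.63-fold higher. The log2 difference was 0.13 (SE 0.13, adjusted p = 0.544) with KD1 and -0.58 (SE 0.13, adjusted p = 0.0076) for KD1 against KD2. Another MYL6 probe gave called log2 differences of 0.67 with KD2 and -0.67 for KD1 against KD2. MYL9, a regulatory light chain, had log2 intensities of 7.24, 7.53 and 7.54 on the KD1 arrays and 6.82, 6.48 and 6.94 on the KD2 arrays, against 7.01, 6.98 and 7.16 on the Luc arrays. The KD1 arrays lay above and the KD2 arrays below the Luc arrays. It was not called against Luc, with log2 differences of 0.39 (95% interval 0.05 to 0.73) for KD1 and -0.30 (95% interval -0.64 to 0.04) for KD2, but KD1 lay above KD2 by a log2 difference of 0.69 (SE 0.15, adjusted p = 0.00776). This MYL9 difference was 0.28 with the deposited values and 0.40 without background correction, called with both. Another MYL9 probe gave 0.54 on the log2 scale for KD1 against KD2, not called. Detected on 3 of the 9 arrays, it had low mean log2 intensities of 5.39 with KD1, 4.86 with KD2 and 5.25 with Luc. The related light chains MYL12A and MYL12B were called in no comparison, with log2 differences of -0.06 and 0.02 for KD1 against KD2. The heavy chains MYH9 and MYH10 were not called, with log2 differences between -0.28 and -0.04 against Luc.

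CALD1 encodes caldesmon, which binds actin and tropomyosin and restrains myosin. CALD1 had log2 intensities of 10.66, 10.86 and 10.70 on the KD1 arrays and 10.09, 10.35 and 10.19 on the KD2 arrays, against 11.32, 11.13 and 11.12 on the Luc arrays. The groups did not overlap, with KD2 lowest, KD1 between and Luc highest. As log2 differences, CALD1 gave -0.45 (SE 0.13, adjusted p = 0.0393) with KD1, -0.99 (SE 0.13, adjusted p = 0.000637) with KD2, and 0.54 (SE 0.13, adjusted p = 0.0117) for KD1 against KD2. Of the other CALD1 probes, 1 was called with KD2 and between the siRNAs, with log2 differences of -1.24 and 1.04, and not with KD1 (-0.20). A further CALD1 probe was called in no comparison, with log2 differences of 0.20 with KD1 and 0.24 with KD2. Its mean log2 intensities were low, at 5.21 with KD1, 5.24 with KD2 and 5.01 with Luc. This further probe was detected on 5 of the 9 arrays and enters the mean of detected probes below. The CALD1 call with KD1 was lost without any 1 array but KD1 replicate 2 and KD2 replicates 1 and 2 (adjusted p = 0.0537 to 0.121). It was also lost with scaling over the tested features, without the detection filter, with the mean of all detected probes, with the replicate number as a block and with only the groups compared in the fit (adjusted p = 0.0593 to 0.468), and the mean of the detected CALD1 probes gave a log2 difference of -0.15. The CALD1 call between the siRNAs was lost with median scaling (adjusted p = 0.0578).

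Transgelins and calponins are related small proteins that bind along actin filaments. TAGLN, which encodes the smooth muscle protein SM22 and is also made by mesenchymal cells, had log2 intensities of 8.14, 8.12 and 8.33 on the KD1 arrays and 7.63, 6.92 and 7.44 on the KD2 arrays, against 7.95, 8.11 and 8.07 on the Luc arrays. The KD2 arrays lay below all others. TAGLN had log2 differences of -0.71 (SE 0.18, adjusted p = 0.0166) with KD2, 0.15 (SE 0.18, adjusted p = 0.625) with KD1 and 0.86 (SE 0.18, adjusted p = 0.00537) for KD1 against KD2. Another TAGLN probe was not called, with log2 differences of 0.004 with KD2 and 0.51 for KD1 against KD2. That TAGLN probe had low mean log2 intensities of 5.94 with KD1, 5.43 with KD2 and 5.42 with Luc. TAGLN2, its close relative, had log2 intensities of 11.29, 11.41 and 11.22 on the KD1 arrays and 11.83, 12.03 and 11.98 on the KD2 arrays, against 11.30, 11.48 and 11.44 on the Luc arrays. Here the KD2 arrays lay above all others, so that TAGLN and TAGLN2 moved in opposite directions with KD2. The log2 difference of TAGLN2 was 0.54 (SE 0.12, adjusted p = 0.0108) with KD2, -0.10 (SE 0.12, adjusted p = 0.626) with KD1 and -0.64 (SE 0.12, adjusted p = 0.00362) for KD1 against KD2. Another TAGLN2 probe was called in the same directions, at 0.60 and -0.55 on the log2 scale. CNN2 and CNN3 were not called, but another CNN2 probe was lower with KD1 against Luc and against KD2, with log2 differences of -0.67 and -0.69. The TAGLN call with KD2 was lost without Luc replicate 2 (adjusted p = 0.0575) and with the mean of all detected probes (log2 difference -0.35, adjusted p = 0.241). With the deposited values the TAGLN log2 differences were -0.36 with KD2 and 0.44 for KD1 against KD2, and without background correction that with KD2 was -0.47, all called.

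Of the genes that turn filaments over, CFL1, which encodes the severing protein cofilin, was called with KD2. CFL1 had log2 intensities of 13.01, 12.87 and 12.94 on the KD1 arrays and 13.002, 13.13 and 13.24 on the KD2 arrays, against 12.51, 12.71 and 12.81 on the Luc arrays. All knockdown arrays lay above all Luc arrays. The log2 difference of CFL1 was 0.45 (SE 0.13, adjusted p = 0.0326) with KD2 and 0.26 (SE 0.13, adjusted p = 0.203) with KD1. PFN1, which encodes profilin and loads actin monomers for growth, and ARPC2, a subunit of the Arp2/3 complex that nucleates branches, were not called, with log2 differences between 0.11 and 0.33 against Luc. The CFL1 call was lost without KD2 replicate 2 or 3 or Luc replicate 1 or 2 (adjusted p = 0.0752 to 0.105) and without the detection filter or with only the groups compared in the fit (adjusted p = 0.0544 and 0.0637).

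Ezrin, radixin and moesin link filaments to the membrane and are close paralogs. RDX had log2 intensities of 9.72, 9.92 and 9.62 on the KD1 arrays and 9.77, 9.45 and 9.45 on the KD2 arrays, against 10.11, 10.29 and 10.30 on the Luc arrays. All knockdown arrays lay below all Luc arrays, and the log2 difference was -0.48 (SE 0.14, adjusted p = 0.0437) with KD1 and -0.68 (SE 0.14, adjusted p = 0.00742) with KD2. MSN went the other way with KD2. MSN had log2 intensities of 11.93, 11.87 and 12.07 on the KD1 arrays and 12.24, 12.47 and 12.19 on the KD2 arrays, against 11.50, 11.67 and 12.01 on the Luc arrays. All KD2 arrays lay above those of both other groups. The rise was 0.57 (SE 0.16, adjusted p = 0.0244) as a log2 difference with KD2, and the log2 difference was 0.23 (SE 0.16, adjusted p = 0.363) with KD1. EZR was not called, with log2 differences of -0.07 (95% interval -0.37 to 0.24) and -0.40 (95% interval -0.71 to -0.10) for KD1 and KD2. The RDX call with KD1 was lost without any 1 array but KD1 replicate 2 and KD2 replicate 1 (adjusted p = 0.054 to 0.132). It was also lost with scaling over the tested features, without the detection filter, with the replicate number as a block and with only the groups compared in the fit (adjusted p = 0.0581 to 0.0857). The MSN call was lost without KD2 replicate 2 or Luc replicate 1 or 2 (adjusted p = 0.0777 to 0.0885).

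PDLIM proteins carry a PDZ and LIM domains and dock on alpha-actinin along stress fibres. PDLIM1 had log2 intensities of 8.48, 8.31 and 8.65 on the KD1 arrays and 9.30, 9.21 and 9.39 on the KD2 arrays, against 9.25, 9.31 and 9.41 on the Luc arrays. The KD1 arrays lay below all others, and the KD2 and Luc arrays overlapped. Its log2 difference was -0.84 (SE 0.13, adjusted p = 0.00213) with KD1, 1.80-fold lower, and -0.02 (95% interval -0.31 to 0.27) with KD2. For KD1 against KD2 the log2 difference was -0.82 (SE 0.13, adjusted p = 0.00129). PDLIM7, also called enigma, had log2 intensities of 7.56, 7.47 and 8.09 on the KD1 arrays and 8.25, 8.46 and 8.49 on the KD2 arrays, against 7.91, 7.72 and 7.87 on the Luc arrays. The KD2 arrays lay above all others. For PDLIM7 the log2 difference was 0.56 (SE 0.17, adjusted p = 0.0383) with KD2, -0.13 (SE 0.17, adjusted p = 0.658) with KD1 and -0.70 (SE 0.17, adjusted p = 0.0129) for KD1 against KD2. Other PDLIM7 probes were called in no comparison, with log2 differences of 0.05 and 0.39 with KD2 and of -0.03 and -0.10 for KD1 against KD2. PDLIM5 and LASP1 were not called, though other PDLIM5 probes were called higher with KD2 (log2 difference 0.62) and lower in KD1 than in KD2 cells (log2 difference -0.97). The PDLIM7 call with KD2 was lost without any 1 of the KD2 or Luc arrays (adjusted p = 0.0508 to 0.119) and with median scaling, without the detection filter or with the mean of all detected probes (adjusted p = 0.0731 to 0.116). That between the siRNAs was lost with the mean of all detected probes (log2 difference -0.28, adjusted p = 0.12). The deposited values gave PDLIM7 log2 differences of 0.33 with KD2 and -0.39 for KD1 against KD2, both called.

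CDC42SE2 encodes a small effector that binds CDC42, and it had the largest rise of the measured genes with either siRNA. CDC42SE2 had log2 intensities of 9.28, 9.08 and 9.20 on the KD1 arrays and 9.11, 8.94 and 8.69 on the KD2 arrays, against 7.83, 7.41 and 7.58 on the Luc arrays. All knockdown arrays lay above all Luc arrays. The log2 difference was 1.58 (SE 0.16, adjusted p = 0.000209) with KD1, 3.00-fold higher, and 1.31 (SE 0.16, adjusted p = 0.000379) with KD2, 2.48-fold higher. The siRNAs differed by 0.27 (95% interval -0.07 to 0.62) on the log2 scale, not called. Another CDC42SE2 probe was called in no comparison, with log2 differences of 0.34 with KD1 and -0.003 with KD2. The mean of the CDC42SE2 probes gave 0.96 with KD1 and 0.65 with KD2 and the deposited values 0.99 and 0.80, all called. Its relative CDC42SE1 was not called either, with log2 differences of 0.17 (95% interval -0.38 to 0.73) and -0.02 (95% interval -0.57 to 0.54) for KD1 and KD2.

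Of the GTPases, RHOA, which drives stress fibres and contraction, had log2 intensities of 12.60, 12.78 and 12.61 on the KD1 arrays and 12.72, 12.45 and 12.44 on the KD2 arrays, against 12.61, 12.38 and 12.53 on the Luc arrays. Arrays of the groups overlapped, and it was not called, with log2 differences of 0.16 (95% interval -0.14 to 0.46) with KD1, 0.03 (95% interval -0.26 to 0.33) with KD2 and 0.13 (95% interval -0.17 to 0.42) for KD1 against KD2. The sign of the last turned with median scaling, to -0.02. RAC1, which drives lamellipodia, had log2 intensities of 13.27, 13.45 and 13.30 on the KD1 arrays and 12.46, 12.74 and 12.84 on the KD2 arrays, against 13.08, 13.20 and 13.29 on the Luc arrays. Each KD2 array lay below all others. RAC1 gave log2 differences of -0.51 (SE 0.14, adjusted p = 0.0243) with KD2, 0.15 (SE 0.14, adjusted p = 0.504) with KD1 and 0.66 (SE 0.14, adjusted p = 0.00577) for KD1 against KD2. RHOB, an endosomal relative of RHOA, had log2 intensities of 5.78, 6.12 and 5.92 on the KD1 arrays and 6.47, 6.18 and 6.36 on the KD2 arrays, against 5.87, 5.73 and 6.01 on the Luc arrays. Again the KD2 arrays were the highest. With KD2 the log2 difference of RHOB was 0.47 (SE 0.14, adjusted p = 0.0401) and with KD1 0.08 (SE 0.14, adjusted p = 0.769). CDC42 was not called with the probe tested, while another CDC42 probe was higher with KD2, with a log2 difference of 0.59 and an adjusted p of 0.00796. The RAC1 call against Luc was lost without KD2 replicate 1 or 2 or Luc replicate 2 or 3 (adjusted p = 0.0519 to 0.0828) and with scaling over the tested features (adjusted p = 0.0842). The RHOB call was lost without KD1 replicate 3, KD2 replicate 1 or 3, or Luc replicate 1 or 2 (adjusted p = 0.0535 to 0.135). It was also lost without background correction, with an offset of 50, with median scaling, with the deposited values, without the detection filter and with the replicate number as a block (adjusted p = 0.0647 to 0.178), and the RHOB log2 difference with KD2 was 0.12 with the deposited values and 0.19 without background correction.

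The siRNAs were also set against each other. KD1 and KD2 cells differed in 13 of the 49 genes, a share of 26.5% beside 27.4% of all tested features (13.3% higher and 14.1% lower) and 32.3% of those detected on all 9 arrays. PTK2, TAGLN, TPM4, MYL9, RAC1 and CALD1 were higher in KD1 than in KD2 cells. PDLIM1, FSCN1, PDLIM7, TAGLN2, FERMT1, ILK and MYL6 were lower in KD1 than in KD2 cells. Their sizes ran from 0.54 to 0.92 on the log2 scale. For each of the 13 the KD1 arrays lay wholly on 1 side of the KD2 arrays. Since the calls came from the same arrays, this adds no support. Some genes not called, such as TLN1, FERMT2 and EZR, were separated in the same way. ILK, TPM4 and MYL9 were called in this comparison alone. The count was 13 or 14 with any 1 array left out, and with median scaling the split was 5 higher and 11 lower.

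**Figure D3:**
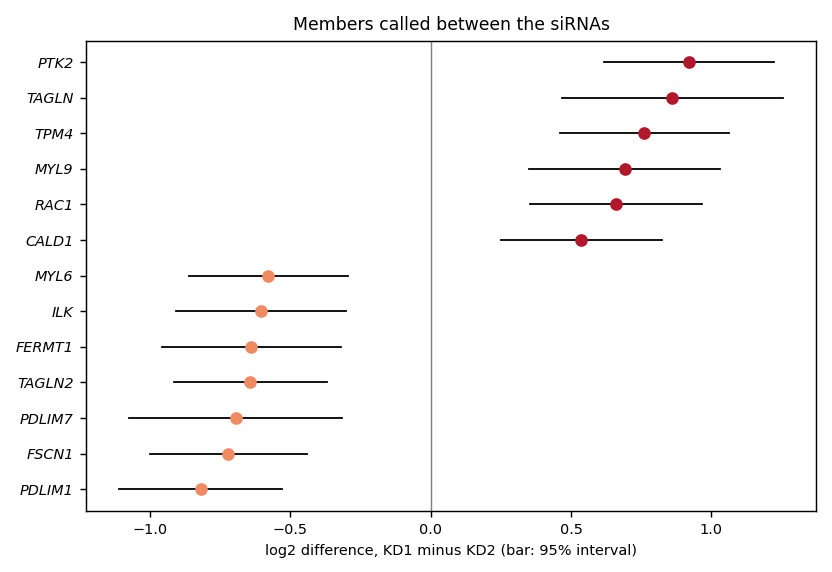
Log2 difference of KD1 minus KD2 (x axis) for the 13 genes called between the siRNAs, from highest to lowest, with 95% intervals as bars. The 6 genes at the top were higher in KD1 cells, led by PTK2 at 0.92, and the 7 below were lower, to PDLIM1 at -0.82.

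Adhesion adaptors and actin-binding genes were set side by side. The actin-binding genes are the crosslinkers, tropomyosins, myosin chains, transgelins and calponins, filament turnover genes, membrane linkers and LIM proteins above, 25 measured of 29. With KD1, 1 adaptor rose and 1 fell, 13.3% of 15, and 1 actin-binding gene rose and 5 fell, 24% of 25. With KD2, 2 adaptors rose and 2 fell, 26.7% of 15, and 5 actin-binding genes rose and 5 fell, 40% of 25. Between the siRNAs, 20% of the adaptors and 36% of the actin-binding genes were called. Of all tested features, 16.5% were called with KD1, 22.4% with KD2 and 27.4% between the siRNAs, and of those detected on all 9 arrays 19.4%, 27.2% and 32.3%. The shares of the adaptors thus lay near or below these. Those of the actin-binding genes lay above them, mostly with KD2. They rest on few genes, with 6 called with KD1, 10 with KD2 and 9 between the siRNAs. Neither was tested.

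The median log2 difference of the adaptors was -0.23 with KD1 and -0.07 with KD2, and that of the actin-binding genes was -0.07 with KD1 and -0.04 with KD2, beside medians of all tested features of 0.005 and -0.001. On single arrays against the Luc mean, the adaptor median was -0.06, -0.18 and -0.13 with KD1 and -0.01, -0.11 and -0.10 with KD2. The arrays of the siRNAs thus overlapped. Actin-binding medians on single arrays were 0.07, -0.05 and 0.004 with KD1 and -0.23, -0.05 and 0.07 with KD2. With KD1, 9 of 15 adaptors had a negative log2 difference, as had 13 of 25 actin-binding genes. The adaptor median with KD1 was -0.13 without background correction, -0.08 with the deposited values, -0.44 with median scaling (all features -0.19) and -0.15 with scaling over the tested features (all features 0.11). The actin-binding median with KD1 turned to 0.05 with scaling over the tested features, and it was -0.25 with median scaling and 0.0013 without KD1 replicate 2. The adaptor median with KD2 ran from -0.15 to 0.0036 with 1 array left out and was -0.21 with median scaling. The median size of the log2 difference, sign aside, was 0.37 for actin-binding genes with KD2 beside 0.28 for all tested features, and 0.26 with KD1 beside 0.25. The residual SD of the fit had a median of 0.152 over the 49 genes and 0.217 over all tested features.

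**Figure D4:**
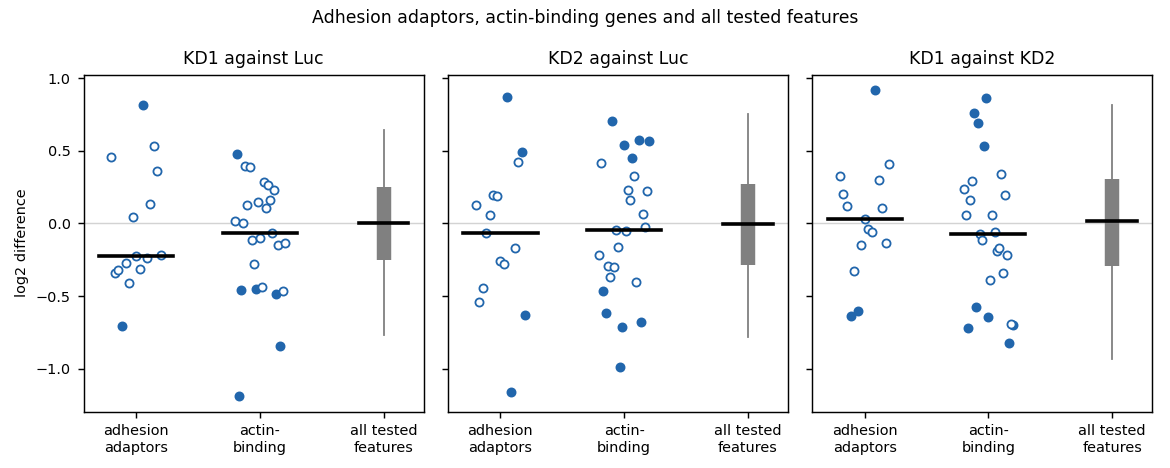
Log2 differences (y axis) of the 15 measured adhesion adaptors and the 25 measured actin-binding genes for KD1 against Luc, KD2 against Luc and KD1 against KD2. Filled points are calls, black lines are medians, and for all tested features the grey bar runs between the percentiles 25 and 75 and the thin line between 5 and 95. The adaptor median lies lowest with KD1, at -0.23, and called genes lie on both sides of 0 in each panel.

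Many genes of this machinery are textbook targets of SRF, which binds the CArG box with its actin-sensing partners MRTFA and MRTFB, and of the TEAD factors that work with YAP. Both motifs were searched on both strands in RefSeq promoter windows of assembly GRCh38.p14 (250 bases before to 50 after each start), the TEAD motif as GGAATG or its reverse complement. Windows were found for 46 genes, 78 in all since some genes have several starts. A CArG box was in 6 of the 78 (7.69%), beside 454 of 35114 windows of all genes (1.29%). It was in 0 of 15 windows of genes called higher with at least 1 siRNA, 1 of 9 of genes called lower and 4 of 47 of genes not called with either, and the last was in FLNA. The TEAD motif was in 12 of 78 (15.4%), beside 14% of all windows, with 1 of 15 for genes called higher, 3 of 9 for genes called lower, 7 of 47 for genes not called with either and 1 in FLNC.

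The 5 CArG-holding windows of measured genes are shown by the 120 bases around the match, because they place genes that fell, differed between the siRNAs or were not called beside the same motif. They are chr7:116222703-116222822 on the plus strand for TES, chr19:16067310-16067429 on the plus strand for TPM4, chr19:1026464-1026583 on the plus strand for CNN2, chr14:68977673-68977792 on the minus strand for ACTN1 and chr17:81512829-81512948 on the minus strand for ACTG1. All lie upstream of the gene start and read 5′ to 3′ on the gene's strand, with matches in capitals.
TES: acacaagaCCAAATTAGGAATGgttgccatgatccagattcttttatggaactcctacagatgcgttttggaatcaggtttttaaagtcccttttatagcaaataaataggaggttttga
TPM4: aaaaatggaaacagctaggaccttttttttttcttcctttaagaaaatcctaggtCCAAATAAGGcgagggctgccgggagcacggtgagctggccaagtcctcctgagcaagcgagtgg
CNN2: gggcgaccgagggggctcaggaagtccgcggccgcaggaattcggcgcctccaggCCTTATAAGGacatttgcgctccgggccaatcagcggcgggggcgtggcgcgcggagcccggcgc
ACTN1: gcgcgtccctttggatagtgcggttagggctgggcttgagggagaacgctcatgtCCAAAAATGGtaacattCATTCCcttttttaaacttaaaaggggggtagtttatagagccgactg
ACTG1: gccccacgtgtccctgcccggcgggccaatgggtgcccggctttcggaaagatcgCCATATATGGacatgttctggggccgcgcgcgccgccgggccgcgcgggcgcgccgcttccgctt
In TES the capitals hold a CArG box and a TEAD motif that overlap, and in ACTN1 a CArG box and, apart from it, a TEAD motif on the other strand. With the probe tested, TES fell with KD2 (log2 difference -0.63), TPM4 was higher in KD1 than in KD2 cells (0.76), and CNN2, ACTN1 and ACTG1 were called in no comparison. The matches describe the letters of these windows and say nothing of binding in these cells.

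A list of 105 other regulators of adhesions and actin was counted in the same fit, 87 of them measured. With KD1, 8 rose and 7 fell (17.2%), with KD2 8 rose and 11 fell (21.8%), and between the siRNAs 13 were higher and 14 lower (31%). These shares lie near those of all tested features, and the median log2 difference was 0.03 with KD1 and 0.06 with KD2. The largest rises with KD1 were SSH1, a phosphatase that activates cofilin, at a log2 difference of 1.24, the Arp2/3 partner cortactin (CTTN) at 0.81, the paxillin-binding GIT2 at 0.78, the myosin light chain kinase MYLK at 0.78 and kindlin-3 (FERMT3) at 0.77. Among the largest falls with KD1 were the myosin phosphatase catalytic subunit PPP1CB at -1.31, CDC42EP5 at -1.05, the kinase PAK2 at -0.66 and the Arp2/3 subunit ARPC5 at -0.64 on the log2 scale.

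With KD2, the largest rises of that list were the paxillin relative leupaxin (LPXN) at a log2 difference of 1.58, MYLK at 1.41, the severing protein gelsolin (GSN) at 1.28, CSRP1 at 0.92 and SSH1 at 0.86. MYLK and SSH1 thus stood among the 5 largest rises with either siRNA. The largest falls with KD2 were the GTPase RHOQ at -1.16, the VASP relative EVL at -1.04, the CDC42-binding kinase CDC42BPA at -1.03, the formin DIAPH2 at -0.85 and the RAC activator ELMO1 at -0.84 on the log2 scale.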

How the data were processed

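Probe intensities on a linear scale were deposited, neither background-subtracted nor normalized between arrays, with a detection p-value for each probe on each array, per the file headers. The authors' deposited log2 values are quantile-normalized, as the values show, with lumi named in the submitters' processing notes. The version of lumi and its settings, like the scanner, were not given in the sources used.

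The intensities were processed with neqc in limma 3.58.1 under R 4.3.3 (background from detection p-values, offset 16, quantile normalization, log2). Of 48799 probes, 28094 had 1 symbol in the platform annotation, updated through a RefSeq table, 13 had several and 20692 none. The probe with the highest mean was used for each symbol, while a probe with no symbol or several counted as its own feature. Features had to reach a detection p under 0.05 on 3 or more arrays, and the 13076 that did entered 1 fit of lmFit and eBayes on all 9 arrays (residual degrees of freedom 6, total 10.2), tested two-sided. No exact permutation p was used, since 3 against 3 arrays cannot go below 0.1. The number of arrays limits the precision. On simulated data for KD1 against Luc with 13076 features, known log2 changes of 0.5, 1 and 2 were recovered for 5.97% of 67, 68.7% of 67 and 98.5% of 66 features, and 3 of 12876 unchanged features were called. Far fewer features were changed there than the 2157 called in the data, so its adjusted threshold was stricter. Its spread was that of all tested features (median residual SD 0.217, beside 0.152 for the 49 genes). The shares recovered thus do not give the sensitivity for these genes.

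The genes, lists, motifs and tests were chosen with earlier results of these data known. Array values and statistics are given for every gene of the 54 called in a comparison and for PXN, ACTB, ACTG1, RHOA and CDC42SE2, and of the other regulators the 5 largest called rises and falls per siRNA are named, except 1 gene that is not reported here. Other probes of a gene come from a fit with every probe as a feature: 28 more probes were detected on at least 3 arrays and 19 were not. The marker lists are for MDA-MB-231, luminal, fibroblast, smooth muscle and myoepithelial, and leukocyte genes. Among leukocyte genes, CD68 was higher with both siRNAs (log2 difference 0.93 with KD1 and 0.62 with KD2, called in both), while CD14 was lower with KD1 (-1.15, adjusted p = 0.00197) and not called with KD2 (-0.32). CD68 alone of that list was detected on all 9 arrays, and the summed level of the leukocyte list was 3199 to 3473 on KD1 arrays, 2654 to 2987 on KD2 arrays and 1772 to 1920 on Luc arrays. The summed level of the luminal list was 2077 to 2208 on KD1 arrays, 3128 to 4179 on KD2 arrays and 2756 to 3166 on Luc arrays, and that of the fibroblast list was 270 to 319 on KD1 arrays, 295 to 340 on KD2 arrays and 278 to 306 on Luc arrays.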

Additional observations from a re-analysis of the deposited data

How the results depend on the processing

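Of 39 called values of the 49 genes, 24 remained called under every alternative, 26 with any 1 array left out, and 0 changed sign under any alternative run. With KD1 against Luc the count of 9 became 14 without background correction, 14 with median scaling, 16 with the deposited values, 5 without the detection filter and 5 when only KD1 and Luc arrays were fitted. The count called with both siRNAs became 3 without the detection filter and 3 when only the groups compared were fitted. The cause was not tested. Leaving out 1 array gave 5 to 8 calls with KD1, 10 to 18 with KD2, 13 to 14 between the siRNAs and 3 to 6 with both. Over all tested features it gave 1381 to 2058 calls with KD1 (2157 with all arrays), 2025 to 2962 with KD2 (2927) and 2781 to 3448 between the siRNAs (3579), and the count of 1381 came without Luc replicate 2.

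The adaptor median with KD1 was -0.13 without background correction, -0.44 with median scaling, -0.15 with scaling over the tested features (chosen after seeing the data) and -0.081 with the deposited values. The median of actin-binding genes with KD1 was -0.25 with median scaling and 0.049 with scaling over the tested features, and the adaptor median with KD2 was -0.21 with median scaling. Leaving out 1 array gave adaptor medians of -0.25 to -0.17 with KD1 and -0.149 to 0.0036 with KD2, and actin-binding medians of -0.092 to 0.0013 with KD1 and -0.066 to 0.014 with KD2. Log2 differences of called values had a median of 80.5% of the reported size with the deposited values and 88.5% without background correction. Of the 39 values, 16 moved by over 1.5 times under at least 1 alternative: 13 with the deposited values, 8 without background correction, 6 with the mean of detected probes and 2 with median scaling.

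With the replicate number as a block, 7 genes were called with KD1, 17 with KD2, 13 between the siRNAs and 4 with both, the calls lost being CALD1 and RDX with KD1 and RHOB with KD2. No clear pairing by number was seen: deviations of arrays with the same number correlated at -0.02 to 0.11, and not every array correlated best with its own number. Replicate 3 did so in each pair of groups (0.04 for KD1 and Luc, 0.03 for KD2 and Luc, 0.06 for KD1 and KD2), as did replicate 1 for KD2 and Luc (0.11). With 3 arrays a group, a weak pairing could be missed.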
